A study of Mus musculus with 2 samples.

Results

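Mir223, Mir142, Mir342, Mir511 and Mir191 are 5 microRNA (miRNA) hairpins studied in blood-forming and myeloid cells. They were followed through the nuclear and cytoplasmic small RNA of mouse dendritic cells. Members were the listed sequences that matched one of these GENCODE vM21 hairpins on the sense strand, over their full length or with up to 3 unmatched bases at the 3′ end. Of 538100 distinct sequences of 18 to 39 nt, 603 lay on the 10 arms of these hairpins, and 4 more lay elsewhere in Mir223, Mir142 or Mir342. The 603 sequences held 22391 nuclear and 38271 cytoplasmic reads, or 1.12% and 1.87% of each library.

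The nuclear library was made from the pellet, with the nuclei in it, of cells swollen in a mild detergent, and the other from the cytoplasmic fraction. Both came from dendritic cells grown for 7 days from C57BL/6 bone marrow with GM-CSF and IL-4, cytokines that drive precursors towards this fate, and both were stimulated with LPS, a component of the bacterial outer membrane. The sources used here name neither the LPS dose nor its duration, and unstimulated cells were not analysed here. Such bulk cultures can hold macrophage-like cells beside dendritic cells. Each group is 1 library, so no value has a replicate check and none was tested between conditions. The intervals below cover counting error alone: amplified reads without molecular identifiers do not count independent molecules.

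A miRNA hairpin is cut from its primary transcript in the nucleus by Drosha and exported. Dicer then trims it in the cytoplasm to a short duplex, and an Argonaute protein keeps a strand of it. The base at which a strand starts sets its seed, bases 2 to 8, which pairs with target mRNAs. A strand that starts elsewhere therefore carries another seed. miR-223 restrains granulocyte production and inflammatory signalling. miR-142 is made across blood lineages and is needed to maintain some dendritic cells in mice. miR-342 is encoded within Evl, an actin regulator gene, and miR-511 within Mrc1, the mannose receptor gene of alternatively activated macrophages. miR-191 is widely expressed and lies beside miR-425.

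The annotated mature strands from RefSeq (GRCm38.p6) are shown because every start and end below is counted from them, with the seed in capitals.
miR-223-3p: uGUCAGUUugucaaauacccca
miR-223-5p: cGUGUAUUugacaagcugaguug
miR-142a-5p: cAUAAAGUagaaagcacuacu
miR-142a-3p: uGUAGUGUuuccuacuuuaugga
miR-342-3p: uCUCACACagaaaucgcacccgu
miR-342-5p: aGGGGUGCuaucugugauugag
miR-511-3p: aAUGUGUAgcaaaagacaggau
miR-191-5p: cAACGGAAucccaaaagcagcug
miR-191-3p: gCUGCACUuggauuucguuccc

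None of these 9 seeds was shared with another annotated mouse strand of the RefSeq table. The table gave no 5p strand for Mir511, so reads centred before the midpoint of that hairpin were taken as its 5p arm. The hairpins lay on the plus strand of GRCm38 at chrX:96242817-96242926 (Mir223), chr11:87756864-87756927 (Mir142), chr12:108658620-108658718 (Mir342), chr2:14261003-14261081 (Mir511) and chr9:108568319-108568392 (Mir191). Mir223 overlapped an exon of the transcript F630028O10Rik and Mir191 an exon of the long non-coding RNA 4833445I07Rik. Mir142, Mir342 and Mir511 lay in introns of Mir142hg, Evl and Mrc1.

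The hairpin of Mir142 is shown whole, with the annotated arms in capitals, because the starts of its strands varied most among the 8 measured arms.
Mir142: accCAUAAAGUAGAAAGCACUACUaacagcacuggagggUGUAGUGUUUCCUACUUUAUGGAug

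Depth was alike, with 2000019 nuclear and 2041383 cytoplasmic reads. miRNAs took 39.8% of the nuclear and 74.6% of the cytoplasmic reads, so levels in RPM, the authors' scaling by library total, depend on the other RNA in each library. Nuclear RNA stood out in the nuclear library, with 1278 nuclear and 86 cytoplasmic reads of Neat1 and 1804 and 305 of Malat1. Mitochondrial ribosomal RNA, which lies outside the nucleus, was present there too, with 1650 nuclear and 2158 cytoplasmic reads of mt-Rnr1. Its part in the miRNA values of the nuclear library was not tested. Markers of red cells, lymphocytes and platelets were at or near 0, with miR-451a at 0 nuclear and 2 cytoplasmic reads, miR-150-5p at 0 and 1, and no read of miR-126. miR-122-5p of liver had 287 nuclear and 24 cytoplasmic reads. The 4 muscle hairpins had 141 and 18 reads in all, of which miR-1a-3p had 108 and 7. The part of liver and muscle RNA in these results was not tested.

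The first comparison asked how much of each arm lay in either library. All 8 arms with at least 50 reads had a nuclear level below the cytoplasmic one in RPM, while under scaling to the miRNA total 6 of them lay above it. In RPM their median log2 ratio was -0.72, against -0.64 for all 217 measured miRNA arms. An arm was called lower or higher where the ratio reached 2-fold and its 95% interval excluded 1. By this rule miR-342-3p and miR-511-3p were lower, 6 arms were neither and 0 were higher. Over all measured arms 28.6% were called lower and 12% higher, so 2 of 8 is near the background share. Scaling to the miRNA total moved the log2 ratio of every arm by 0.91, which put miR-342-3p at -0.73, miR-511-3p at -0.29 and the other 6 between 0.15 and 0.42. None of the 8 reached 2-fold there.

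miR-191-5p was the most abundant, at 8589 RPM nuclear and 13772 RPM cytoplasmic, or 17179 and 28114 reads. It ranked 12 among nuclear and 15 among cytoplasmic miRNA arms. Its ratio was 0.624 (95% interval 0.612 to 0.636). In a bulk library a level cannot tell the number of cells that make a miRNA from the amount in each cell.

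miR-142a-5p followed at 1609 and 2726 RPM, ranked 31 in both libraries, with 3218 nuclear and 5565 cytoplasmic reads. The ratio was 0.590 (0.565 to 0.617). Its partner miR-142a-3p had 196 and 331 RPM and almost the same ratio, 0.594 (0.523 to 0.674). Thus the strand annotated as 5p was the more abundant of this hairpin in both libraries.

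miR-342-3p was at 389 RPM nuclear and 1212 RPM cytoplasmic, from 778 and 2474 reads. It was 3.12-fold lower in the nuclear library (95% interval 2.87 to 3.38), the 17th lowest ratio of the 217 measured arms. The 5p strand of this hairpin was at 42.5 and 59.8 RPM, with a ratio of 0.711 (0.533 to 0.946) whose interval lay wholly above that of the 3p strand.

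miR-223-3p, the strand best known from granulocytes and macrophages, had 196 RPM nuclear and 300 RPM cytoplasmic. Its rank was 68 and 72, below that of the widely expressed miR-191-5p. miR-223-5p had 72.0 and 113 RPM. Ratios of the 3p and 5p strands were 0.654 (0.574 to 0.743) and 0.639 (0.515 to 0.790), with overlapping intervals.

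miR-511-3p had 96.0 RPM nuclear and 220 RPM cytoplasmic and was 2.29-fold lower in the nuclear library (1.93 to 2.73). miR-511-5p had 5 nuclear and 5 cytoplasmic reads. miR-191-3p had 5 and 25 reads. Both strands stayed under the minimum of 50 reads and got no call. The 3p strand of Mir511 and the 5p strand of Mir191 thus gave nearly all reads of their hairpins.

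Within miR-511-3p the 18 nt form had the lowest ratio of the 6 sequences with at least 5% of its reads in either library, and is shown beside the most abundant one.
21 nt: aATGTGTAgcaaaagacagga
18 nt: aATGTGTAgcaaaagaca

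The 21 nt sequence had 57 nuclear and 119 cytoplasmic reads, a ratio of 0.489 (0.350 to 0.676). The 18 nt sequence had 7 and 47 reads, a ratio of 0.152 (0.0580 to 0.338). Its interval did not overlap that of the 21 nt form, but overlapped those of the other 4, at 19, 20, 22 and 23 nt, whose ratios lay between 0.355 and 0.548. It was picked out after its values were seen.

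In each library the order ran from miR-191-5p over miR-142a-5p to miR-342-3p with no overlap of intervals. miR-142a-3p and miR-223-3p came next and could not be told apart in either library. miR-511-3p and miR-223-5p overlapped in the nuclear library, at 82.9 to 111 and 60.7 to 84.8 RPM, and were separate in the cytoplasmic one. miR-342-5p was the lowest of the 8 in both. Ligation and amplification favour some ends over others, so the order describes reads, not molecules.

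**Figure D1:**
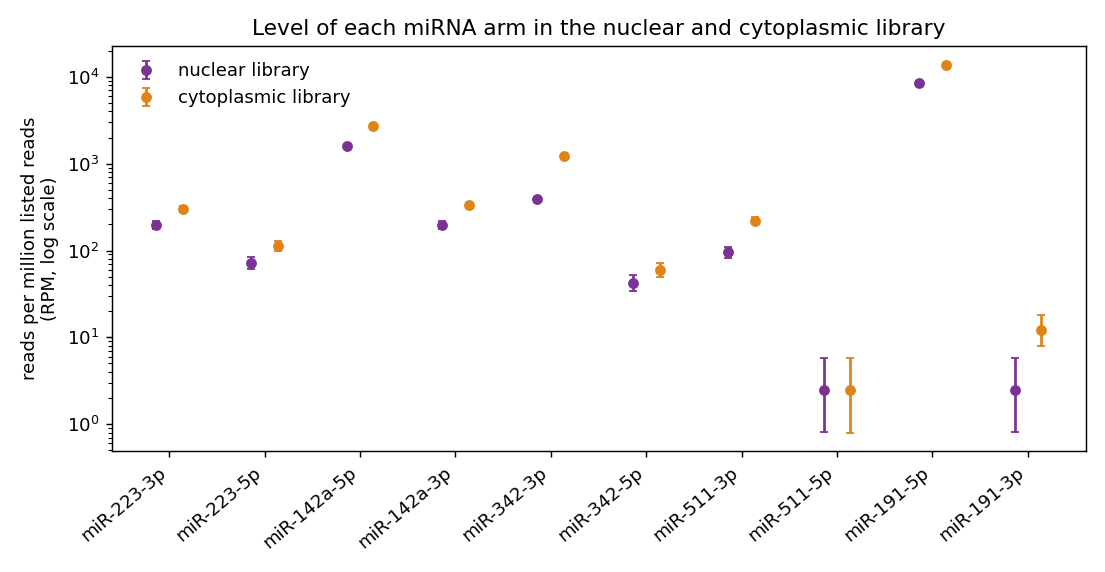
Level of each of the 10 arms in the nuclear (purple, left) and cytoplasmic (orange, right) library in RPM on a log scale. Points are 1 library each and bars are exact 95% counting intervals. Levels reach 8589 RPM nuclear and 13772 RPM cytoplasmic for miR-191-5p, and are lowest for miR-511-5p at 2.50 and 2.45 RPM.

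**Figure D2:**
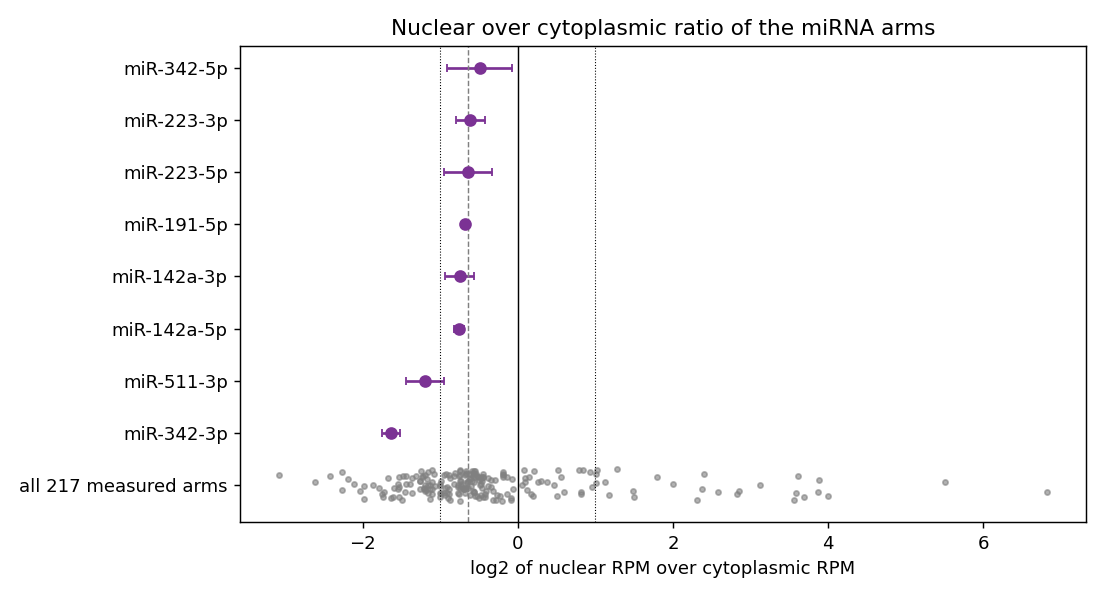
Log2 of the nuclear over the cytoplasmic RPM for the 8 arms with at least 50 reads, with exact 95% intervals, above all 217 measured miRNA arms (grey, spread vertically for visibility). Dotted lines mark 2-fold and the dashed line the median of all arms, -0.64. miR-342-3p and miR-511-3p lie left of the 2-fold line and the other 6 arms lie around the median.

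The arms nearest in level, by distance in log2 RPM over the 2 libraries, were sought among the measured arms outside the member hairpins. miR-26b-5p (3210 nuclear and 5577 cytoplasmic reads) lay nearest to miR-142a-5p, at a distance of 0.005. miR-501-3p (197 and 466 reads) lay nearest to miR-511-3p, at 0.07. Those of miR-223-3p, miR-342-3p and miR-191-5p were farther, with miR-132-3p at 0.21, miR-101a-3p at 0.40 and let-7d-5p at 0.25. The next in order were miR-210-3p at 0.07, miR-212-5p at 0.11, miR-128-3p at 0.28, miR-9-5p at 0.51 and miR-103-3p at 0.61 from the same 5 arms. With 2 libraries such likeness says no more than that both levels were close.

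A further question was whether both strands of a hairpin divided alike. The share of the 5p strand among the reads of a hairpin does not depend on library scaling. For Mir342 it was 9.85% in the nuclear library (7.94 to 12.0) and 4.70% in the cytoplasmic library (3.92 to 5.59). The odds of the 5p strand were 2.21 times higher in the nuclear library (95% interval 1.64 to 2.98). Mir142, at 89.1% and 89.2%, and Mir223, at 26.9% and 27.3%, showed no detectable difference, with odds ratios of 0.993 (0.869 to 1.14) and 0.977 (0.760 to 1.26).

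Mir191 was almost wholly 5p, at 99.97% nuclear and 99.91% cytoplasmic, and its odds ratio of 3.06 (1.15 to 10.2) rests on 5 and 25 reads of the minor strand. For Mir511 the 5p share was 2.54% and 1.10%, with an odds ratio of 2.34 (0.531 to 10.3). Of 137 hairpins with reads enough, 19% had a higher and 10.2% a lower 5p share in the nuclear library by the same interval. Mir342 and Mir191 were thus 2 of 5 in a table where 29.2% differed in either direction.

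The next comparison concerned the 5′ starts. Of all miRNA arms, the median share of reads that began off the annotated start was 1.94% over both libraries. miR-142a-5p reached 73.9% and miR-142a-3p 71.2%, ranks 11 and 13 of 216 arms. miR-223-3p had 32.2%, miR-223-5p 22.2%, miR-342-5p 14.01% and miR-342-3p 10.2%. miR-191-5p, with 3.67%, and miR-511-3p, with 2.18%, began almost uniformly at the annotated base.

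Among the 8 arms, the share with a shifted start was higher in the nuclear library for 3, lower for 2 and undecided for 3, by an odds ratio interval that excluded 1. Of all 216 arms it was higher for 13% and lower for 5.09%. In either direction that is 5 of 8, against 18.1% of all arms, or 22.3% of the 130 arms with at least 200 reads. More reads let smaller differences pass, and all 8 arms had over 200 reads over both libraries. Shifted reads were rare on most arms, with a median share of 1.94%, which leaves less room for a detectable difference. The background shares were not matched for this. Of the 5 arms, miR-142a-5p and miR-142a-3p come from the same hairpin.

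The 4 common starts of miR-142a-5p are shown by their most abundant sequence, in the DNA letters of the deposited table and with the seed of each in capitals.
start -3: aCCCATAAagtagaaagcacta
start -2: cCCATAAAgtagaaagcacta
start 0: cATAAAGTagaaagcactacta
start +1: aTAAAGTAgaaagcactactaa

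Start -2, which lies 2 bases before the annotated base, was the commonest in both libraries, with 1794 nuclear and 2630 cytoplasmic reads. It took 55.7% of miR-142a-5p in the nuclear library (54.0 to 57.5) and 47.3% in the cytoplasmic library (45.9 to 48.6). The odds ratio was 1.41 (1.29 to 1.54). Its seed, CCAUAAA, is that of another annotated strand, miR-142b, and differs from AUAAAGU of the annotated miR-142a-5p.

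The annotated start went the other way, with 656 nuclear and 1633 cytoplasmic reads. It made up 20.4% of the nuclear and 29.3% of the cytoplasmic reads, an odds ratio of 0.617 (0.555 to 0.684). Start +1 had 17.2% and 14.1% (odds ratio 1.27, 1.13 to 1.44), and start -3 had 6.28% and 8.88% (0.688, 0.577 to 0.817). No start therefore carried the difference alone, and the direction did not follow the distance from the annotated base.

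In levels, sequences with start -2 had a nuclear over cytoplasmic ratio of 0.696 (0.655 to 0.740), and those with the annotated start 0.410 (0.374 to 0.449). Those intervals do not overlap. Counted by its annotated start alone, miR-142a-5p had a log2 ratio of -1.29 and was called lower, against -0.76 for all its starts. The call for this arm thus rests on which starts are summed.

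On the opposite strand, miR-142a-3p began most often 1 base after the annotated start.
start +1: gTAGTGTTtcctactttatgg
start 0: tGTAGTGTttcctactttatgg

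Start +1 took 66.4% of its nuclear reads (261 of 393) and 57.5% of its cytoplasmic reads (388 of 675), an odds ratio of 1.46 (1.12 to 1.91). The annotated start had 20.4% and 33.8% (0.501, 0.369 to 0.677). Start +3, though rare, had 5.85% and 2.07% (2.93, 1.43 to 6.24). Seeds of these shifted starts matched no annotated strand. By the annotated start alone this strand had a log2 ratio of -1.48, against -0.75 in all.

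miR-223-3p showed the largest change in its starts among the 8 arms, and in the opposite direction. Its 2 starts are shown by sequences that end at the same base.
start 0: tGTCAGTTtgtcaaataccccaa
start +1: gTCAGTTTgtcaaataccccaa

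The first of these had 65 nuclear and 70 cytoplasmic reads, and the second 19 and 87. Over all lengths, start +1 held 18.4% of the nuclear reads (72 of 392; 14.7 to 22.6) and 39.1% of the cytoplasmic reads (239 of 612; 35.2 to 43.0). The odds ratio was 0.352 (0.256 to 0.480). In RPM, sequences with the annotated start were near equal in level, at a ratio of 0.878 (0.753 to 1.02), whereas start +1 was at 0.307 (0.233 to 0.402). Both ratios depend on scaling, unlike the odds ratio. Counted by the annotated start only, the log2 ratio of this arm was -0.19, against -0.61 in all.

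The other strand of this hairpin, miR-223-5p, kept 77.8% of its reads at the annotated start in either library. Its remaining reads began between 1 base before and 8 bases after it, none with more than 8 nuclear or 24 cytoplasmic reads except start +4, with 11 and 13. No start differed detectably at this depth.

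miR-342-3p had a second start 2 bases inside the strand, with 121 nuclear and 197 cytoplasmic reads.
start 0: tCTCACACagaaatcgcacccgt
start +2: tCACACAGaaatcgcacccgtca

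Start +2 made up 15.6% of nuclear reads (13.1 to 18.3) and 7.96% of cytoplasmic reads (6.93 to 9.10), an odds ratio of 2.13 (1.65 to 2.73). In level it had a ratio of 0.627 (0.496 to 0.790), against 0.294 (0.269 to 0.321) for the annotated start. In RPM both starts of the arm with the lowest nuclear ratio of the 8 thus lay below 1, and the shifted one did not reach 2-fold. Where each start lies depends on scaling, but the difference between them does not. The seed of start +2, CACACAG, is also that of the annotated miR-672-3p.

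Among the 5 arms whose interval excluded 1, miR-191-5p, with the most reads, had the odds ratio of shifted starts closest to 1, at 0.805 (0.724 to 0.894). Start +1 had 541 nuclear and 1101 cytoplasmic reads, or 3.15% (2.89 to 3.42) and 3.92% (3.69 to 4.15), with an odds ratio of 0.798 (0.717 to 0.887). miR-511-3p kept 96.9% and 98.2% at the annotated start. miR-342-5p had 80.0% and 90.2% there, from 85 and 122 reads, for an odds ratio of 0.438 (0.179 to 1.04).

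**Figure D3:**
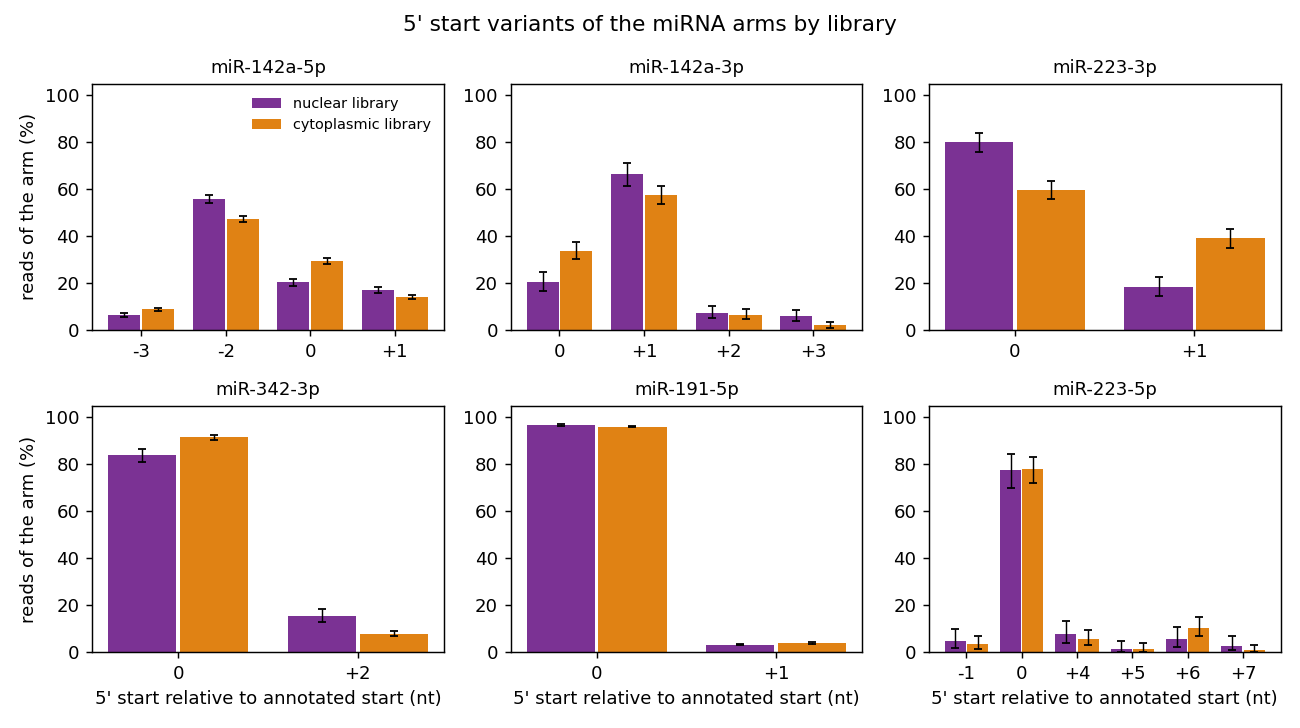
Share of the reads of 6 arms by 5′ start, counted in nt from the annotated start, in the nuclear (purple, left) and cytoplasmic (orange, right) library, for starts with at least 1% of the reads. Bars are shares and lines are exact 95% intervals. Start -2 of miR-142a-5p is higher in the nuclear library (55.7% and 47.3%), and start +1 of miR-223-3p is lower there (18.4% and 39.1%).

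The last comparison concerned the 3′ ends. Mature strands are often trimmed, or lengthened by added A or U. Among the 216 arms, the mean length was greater in the nuclear library for 91 and smaller for 124, so neither library held longer strands throughout. Within a start variant, the share of sequences with at least 22 nt was lower in the nuclear library for 14% of 285 variants and higher for 6.67%.

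Mean lengths differed in both directions. miR-223-3p was longer in the nuclear library, with 22.3 nt, against 21.7 nt in the cytoplasmic library. miR-342-3p was shorter there, with 22.7 and 23.1 nt, and so was miR-142a-5p, with 21.1 and 21.4 nt.

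At the annotated start of miR-223-3p, 80.0% of nuclear and 67.2% of cytoplasmic reads had at least 22 nt, an odds ratio of 1.95 (1.35 to 2.82). At that of miR-342-3p the shares were 78.7% and 87.6% (0.521, 0.414 to 0.658), and at that of miR-142a-3p 73.8% and 88.6% (0.363, 0.181 to 0.731). miR-191-5p had 81.1% and 83.1% (0.876, 0.833 to 0.922). The long forms at these starts were thus a larger nuclear share for miR-223-3p and a smaller one for the other 3. Shifted starts of the same arms showed no detectable difference in this share, but their odds ratio intervals overlapped those at the annotated starts. Those of miR-223-3p, miR-342-3p and miR-191-5p had fewer reads, and 22 nt marks another 3′ end at a shifted start. A length difference limited to annotated starts is therefore not shown. Mean lengths at start +1 were 21.86 nt nuclear and 21.49 nt cytoplasmic for miR-223-3p, the direction of its annotated start. For miR-191-5p they were 21.73 and 21.71 nt, against the direction of its annotated start. In share, start +1 of miR-223-3p had 68.1% and 68.2% (0.993, 0.547 to 1.84). Odds ratios were 0.830 (0.598 to 1.15) at start +1 of miR-142a-3p and 1.09 (0.883 to 1.35) at that of miR-191-5p. Start +2 of miR-342-3p had 0.636 (0.314 to 1.29). The interval also held 1 at the annotated starts of miR-223-5p, miR-342-5p and miR-511-3p.

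By this cutoff miR-142a-5p differed by start. For start -2, 24.2% of nuclear reads (22.2 to 26.2) and 41.7% of cytoplasmic reads (39.8 to 43.6) had at least 22 nt. The odds ratio was 0.446 (0.389 to 0.510). It is shown by the 3 main sequences, which differ at the last base or bases.
20 nt: cCCATAAAgtagaaagcact
21 nt: cCCATAAAgtagaaagcacta
22 nt: cCCATAAAgtagaaagcactac

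The 20 nt sequence had 426 nuclear and 401 cytoplasmic reads, a ratio of 1.08 (0.944 to 1.25). With 1 more base there were 844 and 1020 reads, at 0.845 (0.770 to 0.926). At 22 nt there were 308 and 786 reads, at 0.400 (0.349 to 0.457). From 20 to 22 nt each added base thus went with a lower nuclear ratio, and the 3 intervals did not overlap. Shorter reads of this start were fewer and did not extend this order. They had 57 nuclear and 59 cytoplasmic reads at 19 nt, and 17 and 24 at 18 nt.

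By the same cutoff of 22 nt, other starts of this strand differed less or otherwise. At the annotated start, 37.3% and 44.1% had at least 22 nt (odds ratio 0.756, 0.625 to 0.914), and at start +1, 77.8% and 84.8% (0.631, 0.472 to 0.842). At start -3 the share was higher in the nuclear library, at 88.6% and 81.98% (1.71, 1.03 to 2.93). A length of 22 nt marks another 3′ end at each start, so these shares do not compare the same ends. Mean lengths at start -3 were alike, at 21.89 nt nuclear and 21.90 nt cytoplasmic. Its reads of 23 nt were 2.97% nuclear and 7.69% cytoplasmic. Most reads of starts -3 and +1 were 22 nt long, while starts -2 and 0 spread over 19 to 23 nt.

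**Figure D4:**
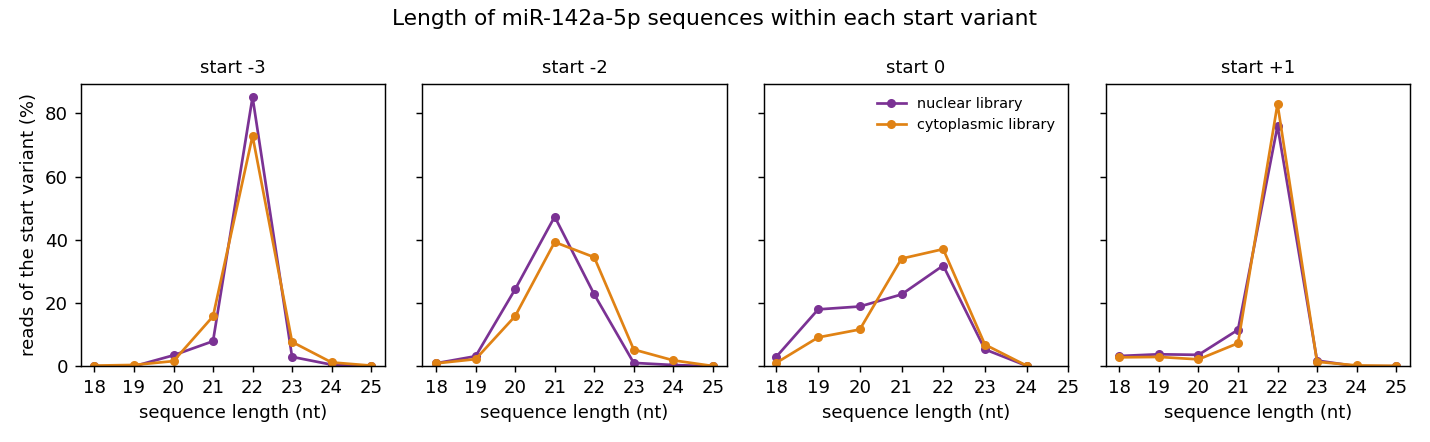
Length of miR-142a-5p sequences within each of its 4 common starts (panels), as the share of the reads of that start, in the nuclear (purple) and cytoplasmic (orange) library. At start -2 the nuclear curve lies at shorter lengths, with 24.2% of nuclear and 41.7% of cytoplasmic reads at 22 nt or more.

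miR-342-3p had a higher share of ends before the annotated 3′ end in the nuclear library, 25.7% against 17.9% in the cytoplasmic library (odds ratio 1.59, 1.30 to 1.93). miR-142a-5p did so as well, at 72.0% and 64.1% (1.44, 1.31 to 1.58). miR-223-3p had the opposite, 19.6% and 30.6% (0.556, 0.405 to 0.759). In all arms 14.8% had a higher and 8.33% a lower share of such ends in the nuclear library. For the other 5 arms the interval held 1.

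Ends beyond the annotated base were less frequent in the nuclear library for miR-223-5p, at 45.1% and 58.3% (0.590, 0.379 to 0.917). miR-191-5p had 10.2% and 12.2% (0.818, 0.769 to 0.869), and miR-142a-5p 23.0% and 25.9% (0.857, 0.773 to 0.9497). The share was lower for 13% of all arms and higher for 4.63%.

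Among the 8 arms with at least 50 reads, unmatched 3′ bases were most frequent on miR-223-3p. They ended 40.8% of its nuclear reads (160 of 392) and 31.0% of its cytoplasmic reads (190 of 612), an odds ratio of 1.53 (1.17 to 2.01). Over all arms the median share was 15.5% nuclear and 15.8% cytoplasmic. Added bases and read errors at the 3′ end cannot be told apart here. Tails of C alone were on 3 nuclear and 2 cytoplasmic reads of this strand, and tails of G alone on 5 and 4.

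Most of these tails were U alone, on 29.6% of nuclear and 24.02% of cytoplasmic reads (1.33, 0.988 to 1.79). The sequence with the clearest nuclear side is shown with a matched one that lacks the last base.
with tail: tGTCAGTTtgtcaaataccccaat
without tail: tGTCAGTTtgtcaaataccccaa

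The tailed sequence had 46 nuclear and 23 cytoplasmic reads, a ratio of 2.04 (1.21 to 3.53), and the other 65 and 70 reads, a ratio of 0.948 (0.666 to 1.35). It was picked out after its values were seen, and other U-tailed sequences of this arm did not share its nuclear side. With U added at the annotated end there were 39 and 46 reads, a ratio of 0.865 (0.550 to 1.36). At start +1 a U-tailed sequence had 9 and 32 reads, a ratio of 0.287 (0.121 to 0.615). A-only tails on miR-223-3p were 6.12% and 3.10% (2.03, 1.05 to 3.99).

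miR-191-5p was tailed mainly by A, on 7.29% of nuclear and 8.67% of cytoplasmic reads (0.828, 0.771 to 0.890), from 1252 and 2437 reads. miR-142a-5p had A tails on 2.95% and 4.71% (0.616, 0.480 to 0.785), and U tails on 3.01% and 3.001%. miR-342-3p carried U on 12.7% and 12.2%, with no detectable difference (1.04, 0.811 to 1.34). Over all arms, A tails were higher in the nuclear library for 7.41% and lower for 6.94%, and U tails for 4.17% and 3.7%. Any unmatched tail was higher for 7.41% and lower for 11.1%, and of the 8 arms for 1 and 2.

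**Figure D5:**
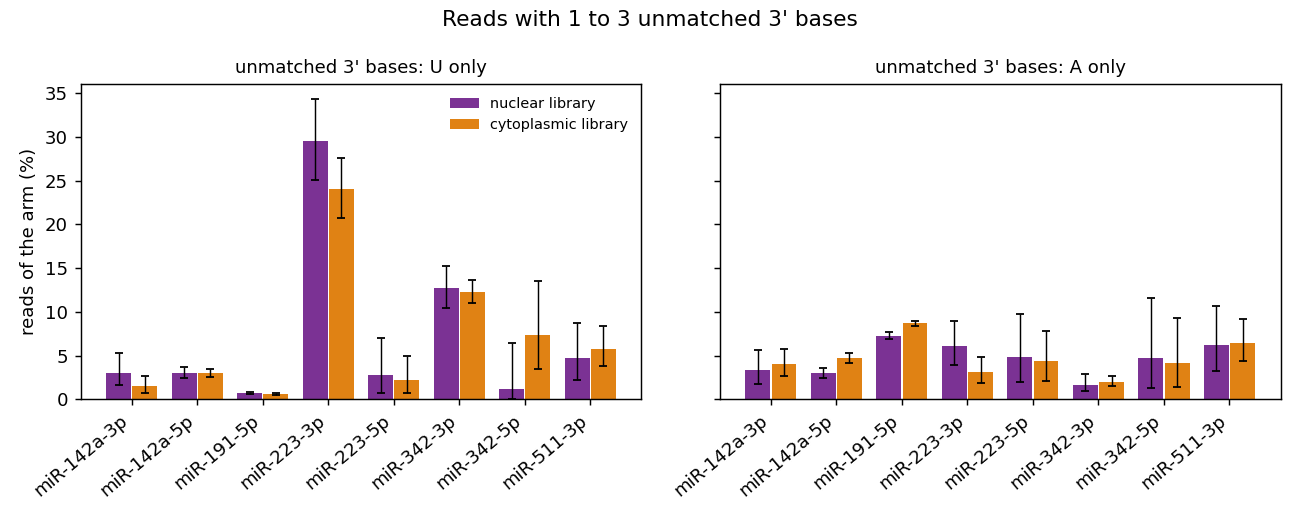
Share of reads that end in 1 to 3 unmatched bases that are all U (left panel) or all A (right panel), for the 8 arms with at least 50 reads, in the nuclear (purple, left) and cytoplasmic (orange, right) library. Lines are exact 95% intervals. miR-223-3p has the highest U share (29.6% nuclear and 24.02% cytoplasmic), and miR-191-5p A tails are lower in the nuclear library (7.29% and 8.67%).

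Reads at other positions of the hairpins were few. The table lists 18 to 39 nt and the hairpins have 64 to 110 nt, so whole precursors could not appear in it. Outside the arms, Mir223 had 1 nuclear and 0 cytoplasmic reads, Mir142 had 0 and 2, and Mir342 had 0 and 4. No read matched the antisense strand of the 5 hairpins. A count of 0 allows up to 3 reads in a library. The longest member sequence had 29 nt, on Mir223, where 0 nuclear and 4 cytoplasmic reads had at least 28 nt.

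Host and neighbouring transcripts gave few fragments. Mrc1, around Mir511, had 9 nuclear and 10 cytoplasmic reads, and Evl, around Mir342, had 2 and 5. Mir142hg had none in either library. Dalrd3, downstream of Mir191, had 6 and 0. miR-425-5p, from the hairpin next to Mir191, had 85 and 121 reads, a ratio of 0.717 (0.537 to 0.954), and miR-425-3p had 48 and 118 and was lower in the nuclear library (0.415, 0.290 to 0.585). miR-191-5p thus lay far above both strands of its neighbour in either library.

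A list of 23 hairpins was taken for other miRNAs studied in blood cells. Mir424 and Mir126 of this list had no entry with reads. The list held 21 measured arms, of which 8 were called lower and 0 higher, against 28.6% lower and 12% higher of all measured arms. The median of their log2 ratios was -0.74, close to that of all measured arms. The 3 most abundant were miR-21a-5p, miR-146b-5p and miR-29a-3p, with log2 ratios of -1.98, -1.54 and -0.76.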

How the data were processed

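Per the labels' protocols, fractions were separated with an NP40 buffer and centrifugation, RNA was taken up with the mirVana kit and sequenced by an Illumina small RNA protocol. CASAVA and the build mm10 are named in the submitters' processing notes. How adapters were trimmed and reads filtered is not stated there. The deposited table holds RPM scaled by the authors. The last letter of each column name (N or C) gave its fraction. 1 read was worth 0.500 RPM (nuclear) or 0.490 RPM (cytoplasmic), and 100% of nonzero values came out whole within 0.1 read, so whole reads were recovered.

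Sequences were matched to GENCODE vM21 transcripts exactly, or else with up to 3 unmatched 3′ bases after a match of 18 nt or more. A sequence belonged to the arm whose RefSeq mature strand covered at least 0.5 of it, and on a side of the hairpin with no RefSeq strand (the 5p arm of Mir511) to that side of the midpoint. A sequence found in several miRNAs became a joint entry unless a partner had more reads of its own. Ratios used reads listed as library size, exact conditional 95% intervals and, for log2 values, a pseudocount of 0.5 reads. Shares have exact (Clopper-Pearson) intervals, and odds ratios exact conditional ones. With 1 library in each group, edgeR's quasi-likelihood test lacks residual degrees of freedom, and no p-value was computed. TMM factors came from edgeR 4.0.16, and other steps from Python 3.11.15 with scipy 1.17.1. The members, lists and tests were chosen with earlier results of these data known. Named were every arm, and starts and sequences with at least 5% of an arm in either library or among its top 3. Starts and sequences were named as far as the results turn on them. The 2 nearest arms outside the member hairpins and the host genes were named as well. Intervals and calls were tried on simulated reads with known ratios and counting error only. Variation between libraries or from amplification was not simulated.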

Additional observations from a re-analysis of the deposited data

Results flagged for a closer look

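Mir342 had 4 cytoplasmic reads of a single sequence outside its annotated arms, and the nuclear library had 0 such reads. The 4 reads exceed the 3 that a count of 0 allows, but this does not show a difference between the libraries.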

How the results depend on the processing

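The count of member arms called lower in the nuclear library, 2 with reads listed as library size, was 8 with TMM factors, 8 with median-of-ratios factors and 0 with the miRNA total. It was 4 with annotated starts only, where the lower count over all miRNA arms was 62. Over all 217 measured miRNA arms, 62 were lower and 26 higher. The scalings keep these 217 arms. Minimums of reads change how many are counted, up to 763 with none. Limits on the sequences used can do so too, so such counts are not shares of 217. Lower counts were 134 (TMM factors), 154 (median of ratios), 10 (miRNA total), 94 (minimum of 10 reads), 41 (200 reads) and 97 (no minimum). Higher counts were 46 (miRNA total), 11 (most abundant sequence only), 16 (annotated starts only), 9 (sequences of a single gene), 52 (minimum of 10 reads), 6 (200 reads) and 55 (no minimum). The median log2 ratio of all arms was -1.16 (TMM factors), -1.36 (median of ratios) and 0.26 (miRNA total), and the member arms move by the same amount. Arm shares, starts and tails do not depend on scaling. The counts of member hairpins or arms that differed in these shares, 2 for strands, 5 for starts and 3 for tails, were equal with sequences of at least 2 reads and with 20 to 24 nt, and for strands and starts with exact matches. With a single gene required, Mir223 and Mir191 gave no value, since their hairpins overlap longer transcripts, and with exact matches tails cannot be counted. No paired analysis was possible because each group has 1 library. For arms such as miR-342-5p, with 85 and 122 reads, depth limits what could be seen.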

Other observations

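Fragments of 4833445I07Rik, the long non-coding RNA whose exon holds Mir191, gathered just before the 5p strand. This was looked for after the reads of that transcript had been seen. Outside the arms, 6 sequences of 18 to 20 nt ended within 2 bases of the first base of miR-191-5p, with 18 nuclear and 1 cytoplasmic reads. The ratio was 18.4, with a 95% interval of 2.90 to 765, whereas miR-191-5p itself had 0.624. The sequence with most reads, 5 nuclear and 0 cytoplasmic, ended at the base before the strand.
before miR-191-5p: tccaatggctggacagcggg
The remaining fragments of the transcript had 13 nuclear and 0 cytoplasmic reads, so a nuclear side was not particular to those beside the strand. Fragments that abut a mature strand have been described for other hairpins as offset RNAs. F630028O10Rik, which holds Mir223, had no fragment beside miR-223-5p and 4 nuclear and 1 cytoplasmic reads elsewhere.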
